A study of Mus musculus with 2 samples.

Results

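The genes described here are 10 genes of the intestinal crypt: Lgr5, Ascl2, Smoc2, Axin2, Rnf43, Znrf3, Ephb2, Ephb3, Sox9 and Cd44. They were chosen by symbol as markers of crypt stem cells and targets of Wnt signaling, and all 10 were found among the 40879 gene symbols counted. The tissue was intestine of mice on the C57BL/6 background, 8 weeks old at the start and kept for 28 days on regular water without DSS or sulfasalazine, in 1 library of ERAP1 wild-type (WT) mice and 1 of mice labelled ERAP1+/- (hetero type). Both groups are described as germ-free and as kept under specific pathogen-free housing. The ERAP1+/- mice carry a germline allele derived from ERAP1 tm1a (EUCOMM)Wtsi, made from a clone of embryonic stem cells and crossed with a Cre recombinase strain, in which loxP sites flank exons 6 and 7. RNA of 3 mice was pooled for each library and read from the 3' ends of polyadenylated transcripts, which leaves the spread from mouse to mouse unknown, and no p-value is given. The libraries held 8114826 (WT) and 8907515 (labelled ERAP1+/-) reads.

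Crypts are the pits of the intestinal wall from whose base stem cells renew the epithelium. Wnt proteins bind Frizzled and Lrp receptors on these cells, which spares β-catenin from a destruction complex so that it can switch on target genes together with TCF factors. R-spondins strengthen the signal through Lgr receptors, and several targets, Axin2, Rnf43 and Znrf3 among them, dampen it in turn.

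Reads of Erap1, the targeted gene, numbered 229 in WT and 2 in the other library, where its level was 0.730% of WT (ratio with a 95% interval of 0.000878 to 0.0267), which goes against a label that leaves 1 copy intact. The reads come from the 3' end, downstream of exons 6 and 7, and do not test the deletion itself. The second library is therefore called the library labelled ERAP1+/- throughout. The tissue had the markers of colon, with Muc2 at 12020 and 32939 reads and Saa1 at 12924 and 14631. The rest of the colon list had fewer reads in the library labelled ERAP1+/-, Car1 with 13814 and 9366, Slc26a3 with 8144 and 6433 and Aqp8 with 5360 and 5329. The Paneth cell markers Defa17 and Defa24 had no read in either library. Lyz1 (89 and 51 reads) and Itln1 (9 and 22 reads), of the same list, were low. All 6 smooth muscle markers were lower in the library labelled ERAP1+/-, with 8391 CPM together in WT and 4313 there (Acta2 2345 and 1390.0 CPM, Tagln 2387 and 1050.0 CPM). The WT library also held reads of skin and skeletal muscle that were nearly missing from the other library. All 10 suprabasal epidermis markers were lower there (21927 reads in all in WT and 179 in the library labelled ERAP1+/-), as were all 10 skeletal muscle markers (7433 and 188) and all 8 hair follicle markers with at least 10 reads (1638 and 52 reads over the 12 listed).

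By CPM, the read counts relative to library size scaled with TMM (trimmed mean of M values), Ascl2, Smoc2, Axin2, Ephb2 and Sox9 were higher in the library labelled ERAP1+/- past their counting error, Ephb3 was lower, and Lgr5, Znrf3, Cd44 and Rnf43 had intervals that include 1. The ratio to WT was highest for Ascl2 (1.94), followed by Lgr5 (1.55), Smoc2 (1.55), Axin2 (1.42), Ephb2 (1.29) and Sox9 (1.27). Znrf3 (1.13), Cd44 (0.957), Ephb3 (0.871) and Rnf43 (0.864) were closer to 1. None of the 10 genes differed by more than 2-fold on the log2(CPM + 1) scale, where 5.34% of 8013 genes did, those whose value reached 4 in either library or in both. Ascl2 came closest, and with the total count its plain ratio was 2.12 (95% interval 1.548 to 2.92) and its difference on that scale 0.99. Only 5 of the 10 genes reached that level, each of them in both libraries (Smoc2, Ephb2, Ephb3, Sox9 and Cd44). Of all 16142 genes with at least 10 reads over both libraries, the 10 genes included, 8.61% differed by more than 2-fold.

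The exact 95% interval of the ratio, which covers counting error only and not the variation between mice, lay above 1 for 5 of the 10 genes (Ascl2, Smoc2, Axin2, Ephb2 and Sox9), below 1 for Ephb3 and around 1 for the other 4. Over the 16142 genes it lay above 1 for 20.6% and below 1 for 23.8%, so that such an interval is common in this pair of libraries. These shares take in genes with as few as 10 reads, whose intervals are wide, whereas the 10 genes had 80 to 4464. Here and below, the shares of all genes are therefore not matched to the 10 genes or the lists in read number. The median difference in log2(CPM + 1) was 0.35 over the 10 genes, beside 0.00199 over the 16142 genes. It was above 0 for 7 of the 10 genes and for 50.3% of the 16142. Scaling by the total count in place of TMM moved the median of the genes past the level of 4 up by 0.12, and the median of the 10 genes became 0.47. With that scaling the interval lay above 1 for 6 of the 10 genes, Lgr5 having joined, and below 1 for none, Ephb3 having left, beside 29.0% and 17.4% of the 16142 genes. In a piece of tissue, more cells of a type and more RNA per cell cannot be told apart.

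**Figure D1:**
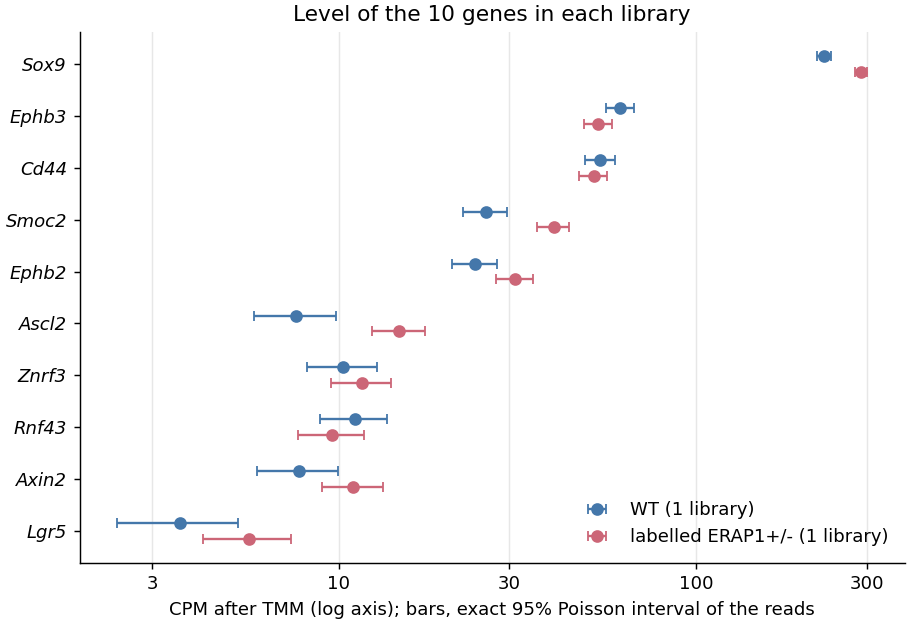
Level of each of the 10 genes as CPM after TMM (log axis) in the WT library (blue) and in the library labelled ERAP1+/- (red), with exact 95% Poisson intervals of the reads as bars. The bars of the libraries are apart for Ascl2, Smoc2 and Sox9, and Ephb2 follows with bars that just overlap.

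In both libraries Sox9 had by far the most reads of the 10 genes and Lgr5 the fewest. Because a transcript gives reads at its 3' end only, the CPM was not divided by transcript length. The WT levels ran from 228 CPM for Sox9 through Ephb3 (61.1), Cd44 (53.9), Smoc2 (25.7), Ephb2 (24.1), Rnf43 (11.1), Znrf3 (10.3), Axin2 (7.72) and Ascl2 (7.59) to 3.60 CPM for Lgr5. Ephb3 and Cd44 had overlapping Poisson intervals, as had Smoc2 and Ephb2, and as had the 4 genes from Rnf43 to Ascl2, so that their order among themselves is not resolved. In the library labelled ERAP1+/- Smoc2 stood above Ephb2 (39.9 against 31.1 CPM, intervals 35.9 to 44.2 and 27.6 to 34.9). Ascl2 (14.7 CPM, 12.4 to 17.4) stood above Rnf43 (9.57 CPM, 7.68 to 11.8) there, after being below it in WT, where their intervals overlapped.

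The 3 markers of the stem cells themselves had 287 reads together in WT and 560 in the library labelled ERAP1+/-, or 36.9 and 60.2 CPM. Ascl2 and Smoc2 were higher there past their counting error, while the interval of Lgr5 includes 1 under TMM scaling and lies above 1 with the total count (1.05 to 2.78). Ascl2, a basic helix-loop-helix transcription factor that maintains crypt stem cells, is found on chromosome 7 of the mouse build GRCm38 (142966829 to 142969264, minus strand). It had 59 reads in WT and 137 in the library labelled ERAP1+/-, or 7.59 and 14.7 CPM, a ratio of 1.94 (95% interval 1.42 to 2.68). Of the 10 genes it had the largest difference, 0.87 in log2(CPM + 1), and its level of 3.98 on that scale was just short of 4.

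Lgr5, the R-spondin receptor by which crypt base stem cells are usually recognised, is found on chromosome 10 (115450311 to 115587780, minus strand). It had 28 and 52 reads, or 3.60 and 5.59 CPM. Its ratio of 1.55 has a 95% interval from 0.962 to 2.55 that includes 1, and with 80 reads over both libraries it was the least well measured of the genes. Smoc2, a secreted calcium-binding protein that is a stem cell marker and is also made by stromal cells, is found on chromosome 17 (14279506 to 14404790, plus strand). It had 200 and 371 reads, or 25.7 and 39.9 CPM, a ratio of 1.55 (95% interval 1.301 to 1.85). Smoc2 and Lgr5 thus kept nearly the same proportion, with 7.14 Smoc2 reads for each Lgr5 read in WT and 7.13 in the library labelled ERAP1+/- (quotient 0.999, 95% interval 0.588 to 1.67). The fibroblast markers, which bear on Smoc2 as a stromal gene, had a median difference of -0.09 in log2(CPM + 1) over 6 genes. The interval lay below 1 for 2 of them, Col1a2 at 883 and 797 CPM and Dcn at 1193 and 814 CPM. It included 1 for the other 4, Col1a1 (ratio 0.967), Col3a1 (1.01), Lum (0.907) and Pdgfra (1.04). With the total count the median of the 6 was 0.03, and the interval lay above 1 for Col3a1 and below 1 for Dcn only. Of all genes with at least 10 reads, it lay above 1 for 20.6% and below 1 for 23.8% under TMM scaling (29.0% and 17.4% with the total count).

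RefSeq promoter windows, 250 bases before to 50 after a transcription start in GRCm38.p6, were found for 6 of the 10 genes (7 windows, 2 of them of Rnf43). None of the 7 held the TCF/LEF letters, CAAAG after a pair of bases that are each A or T, on either strand, and 16.9% of all 32851 windows hold them. This says only that the letters are not in these windows. The CCAAT letters, read on both strands, were found in 37.4% of all windows and in 3 of the 7, and Ascl2 was the one with 3 of them, all within 99 bases of the start. The letters GGGCGG, a GC box, were found in 35.7% of all windows and in 4 of the 7. The sequences before the start are shown for the gene with the largest ratio, for the general Wnt target Axin2 and for Ephb3, the gene with an interval below 1. Capitals mark the CCAAT and GC box letters on either strand. The windows lie at chr7:142969265-142969514 (minus strand), chr11:108920099-108920348 (plus strand) and chr16:21204545-21204754 (plus strand), in this order, and the last ends where the GENCODE M21 gene begins.
Ascl2: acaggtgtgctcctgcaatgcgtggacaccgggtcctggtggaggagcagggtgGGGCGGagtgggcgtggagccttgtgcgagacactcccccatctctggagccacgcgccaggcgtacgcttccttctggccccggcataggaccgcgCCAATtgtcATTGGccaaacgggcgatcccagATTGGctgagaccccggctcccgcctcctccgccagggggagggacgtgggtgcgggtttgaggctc
Axin2: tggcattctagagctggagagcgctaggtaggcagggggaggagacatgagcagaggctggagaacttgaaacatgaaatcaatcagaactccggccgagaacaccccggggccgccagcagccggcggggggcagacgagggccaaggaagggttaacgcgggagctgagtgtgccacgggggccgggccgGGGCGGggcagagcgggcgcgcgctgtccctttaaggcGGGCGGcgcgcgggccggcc
Ephb3: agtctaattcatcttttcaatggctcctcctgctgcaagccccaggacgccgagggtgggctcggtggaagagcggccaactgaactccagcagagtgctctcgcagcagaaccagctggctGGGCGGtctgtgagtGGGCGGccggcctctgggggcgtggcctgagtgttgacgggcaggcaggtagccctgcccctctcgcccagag

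Of the 3 inhibitors that Wnt signaling induces against itself, Axin2 was higher past its counting error and the other two were not. Axin2, a scaffold of the destruction complex and the target most often used to read Wnt activity, is found on chromosome 11 (108920349 to 108950783, plus strand). It had 60 reads in WT and 102 in the library labelled ERAP1+/-, or 7.72 and 11.0 CPM, and its ratio was 1.42 with a 95% interval (1.02 to 1.99) that nearly reaches 1. Rnf43 and Znrf3 are related membrane ubiquitin ligases that remove Frizzled receptors from the cell surface. Rnf43 (chromosome 11, 87662722 to 87735539, plus strand) had 86 and 89 reads, or 11.1 and 9.57 CPM, a ratio of 0.864 (95% interval 0.635 to 1.18). Znrf3 (chromosome 11, 5276324 to 5444847, minus strand) had 80 and 108 reads, or 10.3 and 11.6 CPM, a ratio of 1.13 (95% interval 0.837 to 1.53). For these ligases a difference from WT was not detectable at this depth. The proportion of Axin2 to Rnf43 reads was 0.698 in WT and 1.15 in the library labelled ERAP1+/- (quotient 1.64, 95% interval 1.04 to 2.60), while those of Axin2 to Znrf3 (quotient 1.26, 0.801 to 1.98) and Znrf3 to Rnf43 (quotient 1.304, 0.844 to 2.02) had intervals that include 1. An intronic transcript on the strand of Rnf43, 1110028F11Rik, was counted apart with 46 and 29 reads.

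The receptors Ephb2 and Ephb3, tyrosine kinases that keep crypt cells in position by sensing ephrin-B ligands, went in opposite directions under TMM scaling. Ephb2 (chromosome 4, 136647539 to 136835988, minus strand) had 187 reads in WT and 289 in the library labelled ERAP1+/-, or 24.1 and 31.1 CPM, a ratio of 1.29 (95% interval 1.07 to 1.56). Ephb3 (chromosome 16, 21204755 to 21223305, plus strand) had 475 and 495 reads, or 61.1 and 53.2 CPM, a ratio of 0.871 (95% interval 0.766 to 0.989). With scaling by the total count the ratio of Ephb3 was 0.949 and its interval, 0.835 to 1.08, included 1. What does not depend on the scaling is the proportion of these receptors to each other, 0.394 Ephb2 reads for each Ephb3 read in WT and 0.584 in the library labelled ERAP1+/- (quotient 1.48, 95% interval 1.18 to 1.87). This was among 8 pairs, chosen after the values were seen, that were compared within the 4 roles of the genes. The intervals of 3 of the 8 excluded 1, those of Ephb2 to Ephb3, Axin2 to Rnf43 and Sox9 to Cd44.

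Sox9, a transcription factor of crypt base progenitors, is the gene with the tightest interval. It is found on chromosome 11 (112782224 to 112787760, plus strand) and had 1770 and 2694 reads, or 228 and 289.6 CPM, a ratio of 1.27 (95% interval 1.197 to 1.35). It accounted for 52.6% of the reads of the 10 genes in WT and 55.9% in the library labelled ERAP1+/-. Cd44, a hyaluronan receptor of crypt cells and also of leukocytes, keratinocytes and stromal cells, is found on chromosome 2 (102811141 to 102901665, minus strand). It had 419 and 480 reads, or 53.9 and 51.6 CPM, with a ratio of 0.957 (95% interval 0.838 to 1.09), which became 1.04 (0.914 to 1.19) with the total count. The leukocyte marker Ptprc (109 and 244 reads) had a ratio of 1.87 and Lyz2 (146 and 296 reads) of 1.69, while the epidermal Krt10 had 3922 and 72 reads. Sox9 and Lgr5 are also known in the hair follicle, whose marker Krt17 had 593 and 26 reads. The part of these cell types, and of smooth muscle (median difference -0.95 over its 6 markers), in the values of the 10 genes was not tested.

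**Figure D2:**
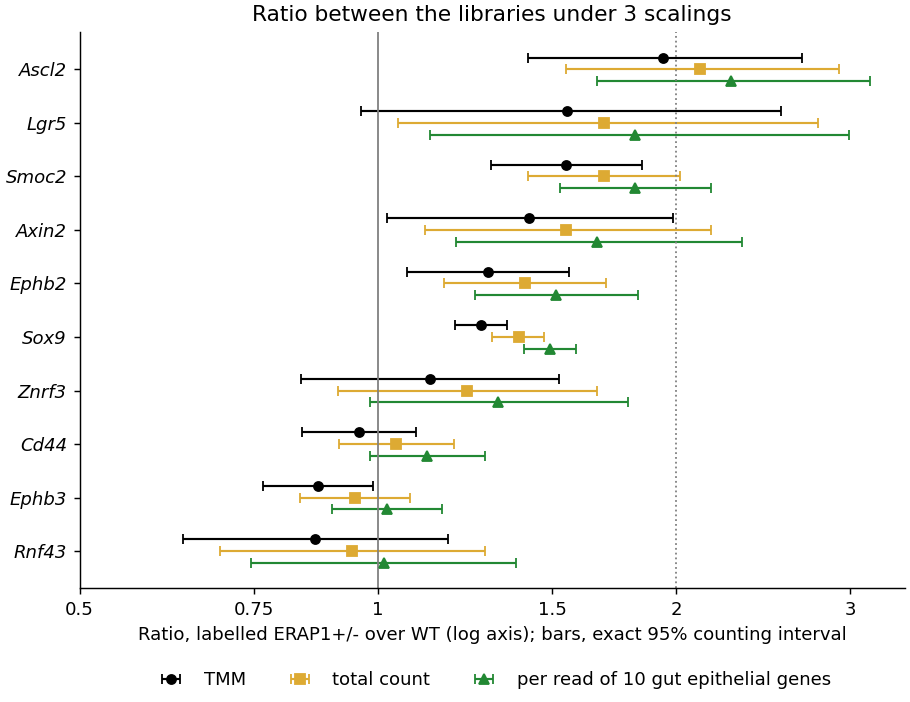
Ratio of the library labelled ERAP1+/- to WT for each of the 10 genes (log axis) with TMM, with the total count and per read of 10 gut epithelial genes, with exact 95% counting intervals as bars, a solid line at 1 and a dotted line at 2. Ascl2, Smoc2, Axin2, Ephb2 and Sox9 lie above 1 under all 3 scalings, and the intervals of Rnf43, Znrf3 and Cd44 include 1 under all 3.

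Because the tissue is a mixture, each gene was also set against the reads of 10 gut epithelial genes, which summed to 57832 in WT and 59040 in the library labelled ERAP1+/-. Under TMM scaling the interval lay below 1 for 7 of them, Epcam (1263 and 1012 CPM) included, and above 1 for 2, Cdx1 (ratio 1.37, 1.27 to 1.48) and Cdx2 (1.67, 1.28 to 2.19), which are named after their values were seen. The shares of all genes with that scaling were 23.8% below 1 and 20.6% above. Lgals4 (2954 and 2940.0 CPM) had an interval that includes 1 and was higher with the total count (1.085, 1.07 to 1.105). The list median was -0.31 in log2(CPM + 1). Per epithelial read the median ratio of the 10 genes was 1.502, from 1.01 for Rnf43 to 2.27 for Ascl2. The intervals of 6 genes lay above 1 (Lgr5, Ascl2, Smoc2, Axin2, Ephb2 and Sox9) and none lay below, beside 37.4% and 13.3% of the 16142 genes. Lgr5 had a ratio of 1.82 (95% interval 1.13 to 2.99). Ephb3 (1.02, 0.898 to 1.16) and Rnf43 (1.01, 0.745 to 1.38) had intervals that include 1. Krt20, a keratin of surface cells and member of that list chosen for mention after its values were seen, was 2.31-fold lower (95% interval 2.20 to 2.42), with 5156 and 2674 reads. The call depended on the reference. Without Krt20 the median ratio was 1.43 and the interval lay above 1 for 6 of the 10 genes, beside 31.8% of all genes. Without Lgals4 it lay above 1 for 9, beside 50.4% of all genes, with Znrf3 (1.49, 1.10 to 2.01), Cd44 (1.26, 1.104 to 1.44) and Ephb3 (1.15, 1.01 to 1.303) added. With Epcam alone it lay above 1 for 8, beside 44.5%. Below 1 it lay for none of the 10 under these 3 references, beside 15.7%, 9.14% and 10.8% of all genes.

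Genes of dividing cells, which in crypts are mostly the offspring of stem cells, were higher as a group. All 20 proliferation genes had a positive difference under TMM and total-count scaling, with 4612 reads in WT and 8083 in the library labelled ERAP1+/-. The interval lay above 1 for 14 of the 20 and below 1 for none, beside 20.6% and 23.8% of all genes, and the median difference in log2(CPM + 1) was 0.52. Among the 6 whose intervals include 1 were Pcna (ratio 1.01), Mcm2 (1.05), Mcm3 (1.05), Mcm4 (1.095) and Mcm5 (1.13). Named after their values were seen, these genes had such intervals with the total count as well. Cdk1, the kinase that drives entry into mitosis, had 184 and 494 reads and thus a ratio of 2.24 (95% interval 1.89 to 2.67). The mitotic cyclin Ccnb2 had 91 and 234 reads and thus a ratio of 2.15 (1.68 to 2.77), and these 2 were the genes of the list past 2-fold on the log2(CPM + 1) scale with TMM. Ube2c, an enzyme of mitotic protein turnover named after its values were seen, had 144 and 354 reads, a plain ratio of 2.05 and a difference of 1.12 with the total count, past 2-fold there. Mki67, a marker of cycling cells, had 464 and 787 reads (1.42, 1.26 to 1.59), and the topoisomerase Top2a 894 and 1563 (1.46, 1.34 to 1.59). Per read of the proliferation genes, a reference chosen after the values were seen, the intervals of Lgr5 (ratio 1.06), Ascl2 (1.32), Smoc2 (1.06) and Axin2 (0.970) included 1. Those of Rnf43 (0.591), Ephb3 (0.595), Cd44 (0.654) and Sox9 (0.868) lay below 1. Under this reference the interval lay below 1 for 59.1% of all genes and above 1 for 3.29%.

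Other genes of the crypt base were mixed. Of 17 other stem and progenitor genes with at least 10 reads, the interval lay above 1 for 7 and below 1 for 3, beside 20.6% and 23.8% of all genes. Their median difference in log2(CPM + 1) was 0.00615. Past 2-fold were Reg4 and Kit, both known from the secretory cells that sit between stem cells at the base of colonic crypts. Reg4 had 4501 and 15827 reads and thus a ratio of 2.94 (95% interval 2.84 to 3.04), and Kit, also a gene of mast and pacemaker cells, had 72 and 202, a ratio of 2.34 (1.78 to 3.11). Slc12a2, a chloride cotransporter of crypt cells, had 1111 and 2419 reads and thus a ratio of 1.82 (1.69 to 1.96). Tspan8 (217 and 234 CPM) differed little and Igfbp4 was lower (152 and 123 CPM). The other genes with an interval below 1, named after their values were seen, were Tnfrsf19 and Prom1. Tnfrsf19 had 159 and 91 reads, a ratio of 0.478 (0.365 to 0.622), and Prom1 had 1068 and 902, a ratio of 0.71 (0.645 to 0.772). Both were lower with the total count too. Olfm4, a stem cell marker of the mouse small intestine, had no read in either library, which allows up to 3 reads or 0.386 CPM in WT and 0.322 CPM in the library labelled ERAP1+/-.

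The other Wnt targets were mixed as well. Of 21 with at least 10 reads, the interval lay above 1 for 7 and below 1 for 10 under TMM scaling (8 and 7 with the total count). For all genes the shares were 20.6% and 23.8% (29.0% and 17.4% with the total count). The median difference of the 21 in log2(CPM + 1) was -0.21, and none of them was past 2-fold with a level of 4 under TMM scaling. Bambi, a membrane protein that dampens BMP signals, was named after its values were seen. It had 65 and 162 reads and a difference of 0.98, which became 1.09 and so past 2-fold with the total count. Dkk2 (101 and 44 reads), Nkd2 (297 and 213) and Nkd1 (250 and 190), named likewise, had ratios of 0.364, 0.599 and 0.635. All were lower past their counting error under TMM and total-count scaling, but Dkk2 did not reach the level of 4. The cell cycle gene Ccnd1 had 121 and 153 CPM, a ratio of 1.27 (95% interval 1.17 to 1.38), close to that of Sox9. The transcription factor Sox4 had 86.0 and 112 CPM (1.31, 1.19 to 1.44). The Id2 gene, which encodes an inhibitor of DNA binding, had 130.5 and 95.7 CPM (0.733, 0.669 to 0.803), and Ets2 had 166 and 178 CPM, with an interval that includes 1 and lies above it with the total count (1.08 to 1.26). So the genes of this list with most reads went both ways.

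**Figure D3:**
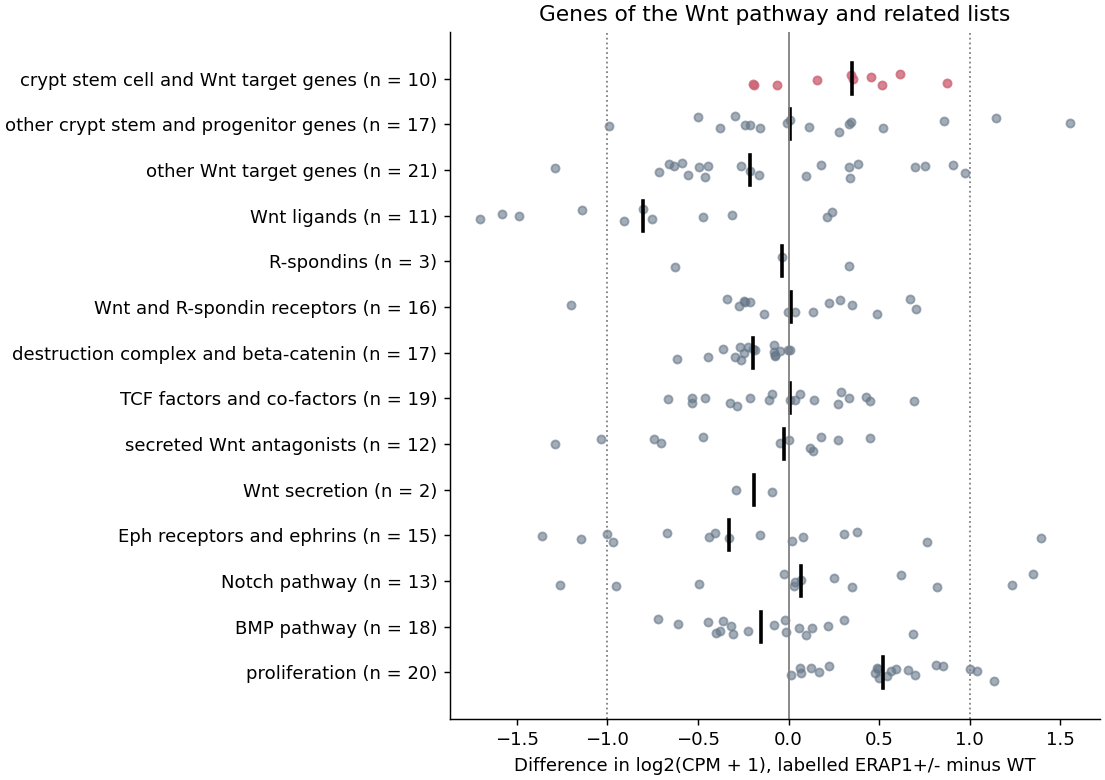
Difference in log2(CPM + 1), the library labelled ERAP1+/- minus WT, for each gene with at least 10 reads (points) in the 10 genes described and in 13 lists of related pathways, with the list median as a black bar and dotted lines at 2-fold. The medians stand highest for proliferation (0.52) and for the 10 genes (0.35), and lowest for the Wnt ligands (-0.80, but -0.31 over the 3 ligand genes with at least 50 reads, above the -0.37 of the Eph list under that filter).

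Upstream of the targets, Wnt ligands were sparse, and 7 of them were lower in the library labelled ERAP1+/- past their counting error. Of 19 ligand genes 11 had at least 10 reads, none had an interval above 1 and 7 had one below (1 and 5 with the total count). Among all genes the shares were 20.6% and 23.8% (29.0% and 17.4% with the total count). The median difference of the ligand genes in log2(CPM + 1) was -0.80, but -0.31 over the 3 genes with at least 50 reads and -1.05 with a pseudocount of 0.1. Wnt5a, a ligand of stromal cells, had the most reads (115 and 164) and an interval that includes 1, and Wnt4 had 104 and 62 reads and thus a ratio of 0.498 (95% interval 0.358 to 0.689). Chosen after their values were seen, Wnt3 had 14 and 0 reads, Wnt7b 23 and 2, and Wnt10a 18 and 1. The 95% interval of the Wnt3 ratio ended at 0.252, Wnt7b was 13.8-fold lower (3.40 to 120.5) and Wnt10a 21.6-fold lower (3.40 to 898). Named likewise, the remaining ligand genes with an interval below 1 were Wnt2, Wnt5b and Wnt6. Wnt2 had 13 and 2 reads (ratio 0.129, 0.0141 to 0.568), Wnt5b 25 and 14 (0.468) and Wnt6 16 and 7 (0.365). With the total count the interval of Wnt2 stayed below 1, and those of Wnt5b and Wnt6 included 1. Wnt3, Wnt7b and Wnt10a are known in skin as well, and the skin markers were lower in the same library. The part of skin in these values was not tested.

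The R-spondins, ligands of Lgr5, showed no difference past counting error. Rspo3, the R-spondin with the most reads, had 196 and 229 (25.2 and 24.6 CPM), a ratio of 0.976 (95% interval 0.803 to 1.19). Rspo1 and Rspo2 had 35 or fewer reads over both libraries and Rspo4 none. Among 16 Wnt and R-spondin receptors the interval lay above 1 for 3 and below 1 for 6 (3 and 1 with the total count), with a median difference of 0.02. All genes had shares of 20.6% and 23.8% (29.0% and 17.4% with the total count). Lgr4, the relative of Lgr5 found throughout the epithelium, had 742 and 765 reads, or 95.5 and 82.2 CPM, a ratio of 0.861 (0.778 to 0.954). Its value lay on the other side of 1 from that of Lgr5, and with total-count scaling its interval, 0.848 to 1.04, included 1. The coreceptor Lrp6 had 88.4 and 74.7 CPM and the receptor Fzd5 44.4 and 37.3 CPM, both with intervals below 1 that include 1 with the total count. Named after their values were seen, the coreceptor Lrp5 (1.69, 1.17 to 2.46) and the receptor Ror2 (1.72, 1.22 to 2.44) were higher.

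In the destruction complex 16 of 17 genes had a negative difference under TMM scaling, but 10 with the total count, and the median difference was -0.19 and -0.07 respectively. Of all genes, 50.3% had a positive difference under TMM scaling, and that share was not computed with the total count. The interval lay above 1 for 0 of the 17 and below 1 for 7 (0 and 4 with the total count). Beside these stand 20.6% and 23.8% of all genes (29.0% and 17.4% with the total count). The gene of β-catenin, Ctnnb1, had 692 and 565 CPM, a ratio of 0.816 (95% interval 0.785 to 0.848), and the kinase genes Gsk3b and Csnk1a1 had 229.5 and 190.5 CPM and 539.5 and 511 CPM. Among 19 TCF factors and co-factors the interval lay above 1 for 4 and below 1 for 4 (8 and 4 with the total count). Under TMM scaling this was close to the shares of all genes, 20.6% and 23.8% (29.0% and 17.4% with the total count). Tcf7l2, the main TCF factor of the intestinal epithelium, had 2708 and 2585 reads and thus a ratio of 0.797 (0.755 to 0.842), and the corepressor gene Tle4 had 219 and 151 CPM. Tle5 (1.045) and Crebbp (1.007) had intervals that include 1, and that lie above it with the total count. The 4 genes with an interval above 1 under TMM scaling, named after their values were seen, were Tcf7l1 (ratio 1.35, 1.24 to 1.46), Ctbp1 (1.22), Cdx1 (1.37) and Cdx2 (1.67). Porcn and Wls, needed to release Wnt proteins, both had intervals that include 1. A list of secreted antagonists, which also holds the Dkk receptors Kremen1 and Kremen2, had 12 genes with at least 10 reads. The interval lay above 1 for none of the 12 and below 1 for 5 (1 and 3 with the total count), beside the same shares of all genes. The only one past 2-fold with a level of 4 was Kremen2, with 171 and 95 reads and 2.15-fold lower, and with the total count its difference of -0.92 was no longer past 2-fold. The secreted Dkk2 had 101 and 44 reads and was 2.75-fold lower (1.91 to 4.01), but did not reach the level of 4.

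The ligands and relatives of the Eph receptors were lower on balance, with the interval above 1 for 2 of 15 and below 1 for 8 (3 and 6 with the total count). Beside these stand 20.6% and 23.8% of all genes (29.0% and 17.4% with the total count). Efnb1 and Efnb2 encode the ligands that Ephb2 and Ephb3 meet on differentiated cells. Efnb1 had 1385 and 1219 reads, or 178 and 131 CPM, a ratio of 0.735 (95% interval 0.680 to 0.795), and Efnb2 had 509 and 380 reads, or 65.5 and 40.9 CPM, a ratio of 0.624 (0.545 to 0.714). Efnb3, the remaining ephrin-B gene and named after its values were seen, went the other way with 6 and 34 reads, a ratio of 4.73 (1.96 to 13.8). The relative Ephb6 was past 2-fold, with 130 and 55 reads and a ratio of 0.353 (0.253 to 0.488). The interval lay below 1 for all 7 markers of basal stratified epithelium, whose median difference was -1.985. Itgb4 had 122 and 75.1 CPM and Dst 178 and 150 CPM. Krt5, with 418 and 73 reads, and Krt14, with 623 and 97, were named after their values were seen. The part of such cells in the values of the Eph receptors and ephrins was not tested.

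**Figure D4:**
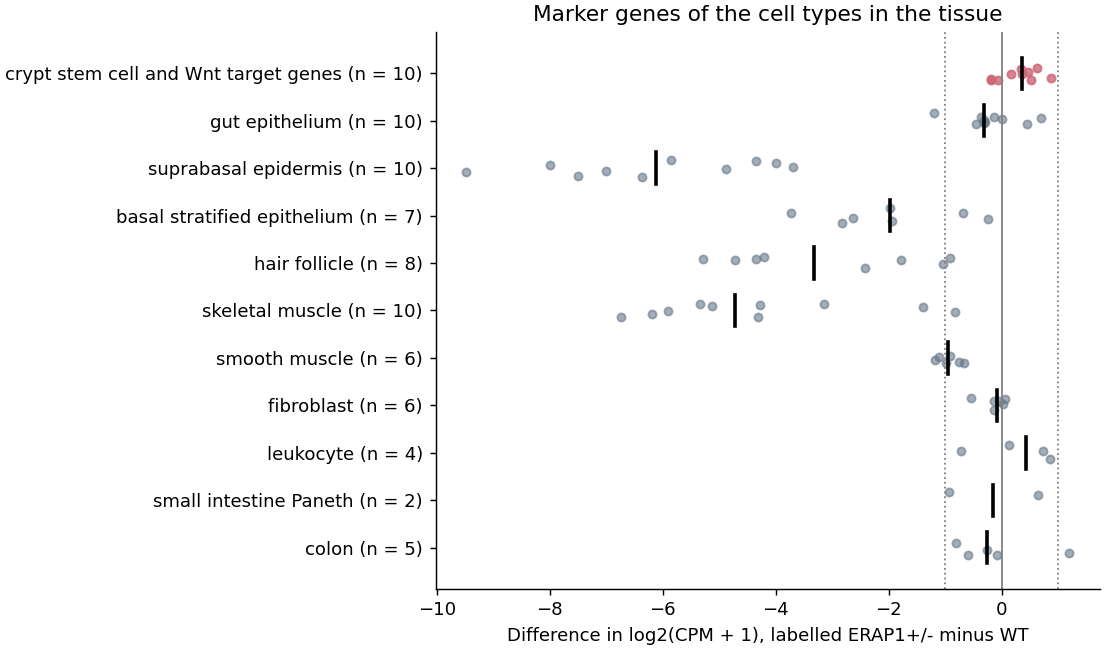
Difference in log2(CPM + 1), the library labelled ERAP1+/- minus WT, for the 10 genes and for markers of 10 cell types or regions with at least 10 reads (points), with medians as black bars and dotted lines at 2-fold. Suprabasal epidermis (median -6.11), skeletal muscle (-4.72) and hair follicle (-3.32) stand far below 0, smooth muscle (-0.95) lies below it with all 6 markers, and the median of the 10 genes (0.35) stands above it.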

How the data were processed

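RNA was extracted from intestine with Trizol, and libraries were made with the QuantSeq 3' mRNA-Seq FWD kit. The authors deposited read counts per gene symbol without normalization, 1 library per genotype. The study's methods name both STAR with HTSeq-count and Bowtie2 with RSEM on GRCm38 for the processing, and which of them gave the deposited counts is not stated, nor whether counting used the strand. The symbols were used as given.

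Scaling used the TMM factors of edgeR 4.0.16 (R 4.3.3), and CPM, log2(CPM + 1) and exact conditional binomial 95% intervals of ratios with scipy 1.17.1. The intervals cover counting error only, and reads without molecular identifiers are not independent molecules. The quasi-likelihood test needs replicates and was not run. A gene was called where log2(CPM + 1) differed by more than 1 and reached 4 in 1 or both libraries. Lists kept genes with at least 10 reads over both libraries. Mitochondrial and ribosomal RNA took 18.0% of the reads in WT and 16.7% in the other library. Simulated data served to test the fold rule and the intervals.

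The 10 genes and the lists were chosen with earlier results of these data known. Named were the 10 genes, the called genes and up to 4 genes with the highest mean CPM of each pathway list, and up to 2 markers of each cell type, and exceptions are stated. Alternatives were DESeq2 1.42.0 size factors, the total count, TMM without skin and skeletal muscle genes or without mitochondrial and ribosomal RNA, a pseudocount of 0.1, other filters and other fold thresholds. Coordinates come from GENCODE M21 on GRCm38, and promoter sequences from RefSeq on GRCm38.p6.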

Additional observations from a re-analysis of the deposited data

How the results depend on the processing

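No paired analysis was possible because only 1 library per genotype was used. The number of the 10 genes past 2-fold was 0 with TMM and with each alternative scaling, filter and pseudocount and with a fold of 4, and 1 (Smoc2) with a fold of 1.5. The number of all genes past 2-fold was 428 (111 higher and 317 lower), 414 with the total count (166 and 248, 359 of them shared), and became 1434 with no filter on low values, 1390 with at least 10 reads in 1 or both libraries, 1247 with a fold of 1.5 and 160 with a fold of 4. The median difference of the 10 genes in log2(CPM + 1) ran from 0.35 to 0.47 over TMM, the 4 alternative scalings and the pseudocount of 0.1. The median ratio per epithelial read was 1.502, 1.69 without Lgals4 (9 of 10 genes with an interval above 1, from 6) and, in alternatives chosen after seeing the data, 1.60 with Epcam alone, 1.43 without Krt20 and 0.875 with the proliferation genes in place of the epithelial genes. With the total count the medians of the R-spondins (0.09) and of the list of antagonists (0.10) were above 0, and with TMM below it (-0.03 and -0.02). With at least 50 reads the Wnt ligand median was -0.31 over 3 genes, and with a pseudocount of 0.1 it was -1.05. Lgr5, with 80 reads over both libraries, had an interval of its ratio from 0.962 to 2.55.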

Other observations

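Notch signaling decides between absorptive and secretory fate in the same crypts. Atoh1, the transcription factor that commits cells to the secretory lineage, had 97 reads in WT and 310 in the library labelled ERAP1+/-, a ratio of 2.67 (95% interval 2.12 to 3.39), and was the gene of the Notch list past 2-fold with a level of 4. Hes1, the Notch target that represses Atoh1, had 181 and 189.8 CPM, with an interval that includes 1 under TMM scaling and lies above it with the total count (1.14, 1.06 to 1.23). The intervals of Notch1 (26.6 and 27.2 CPM) and Rbpj (40.4 and 41.4 CPM) include 1 with both. Of 13 Notch genes with at least 10 reads, the interval lay above 1 for 4 and below 1 for 3 under TMM scaling, beside 20.6% and 23.8% of all genes. Chosen after their values were seen, the ligand genes Dll1 (17 and 43 reads) and Dll4 (24 and 80 reads) had ratios of 2.11 (1.18 to 3.95) and 2.78 (1.75 to 4.60), while the ligand genes Jag1 (177 and 148 reads) and Jag2 (38 and 19 reads) had ratios of 0.698 (0.558 to 0.874) and 0.418 (0.227 to 0.743).

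BMP proteins oppose Wnt signaling toward the crypt top. Bmp2, made by surface epithelium and stroma, had 1883 and 1367 reads and thus a ratio of 0.606 (95% interval 0.565 to 0.651), and Bmp4, made by the stroma, had 1860 and 1684 reads and thus a ratio of 0.756 (0.708 to 0.808). The BMP target genes Id1 (270.4 and 268 CPM) and Id3 (121 and 120.0 CPM) had intervals that include 1 under TMM scaling, and that of Id1 lay above 1 with the total count (1.02 to 1.145). Id2, in this list as well as among the Wnt targets, was lower under both scalings (0.733, 0.669 to 0.803 with TMM). Smad6, named after its values were seen, had 52 and 106 reads and was higher under both (1.70, 1.21 to 2.42 with TMM). Of 18 BMP pathway genes the interval lay above 1 for 1 and below 1 for 7 under TMM scaling, and above 1 for 4 and below 1 for 4 with the total count. For all genes these shares were 20.6% and 23.8% under TMM scaling, and 29.0% and 17.4% with the total count.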
